A study of Arabidopsis thaliana with 9 samples.

Results

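The genes described here are the 85 of 30361 genes on the array whose RMA signal was raised by more than 3 on the log2 scale, which is 8-fold, in both mutants of the Polycomb Repressive Complex 2 (PRC2), the clf swn double mutant and the siFIE line, relative to Col wildtype plants. RMA turns the brightness of a gene's probes into 1 value per array, after a background correction and a normalization between arrays. Members were chosen on the mean log2 signal of 3 arrays per genotype. There were 103 genes past this limit, and 18 of them were set aside because they stood on a list of 22 genes, most of them MADS genes of flowering and flowers. Not all remaining members lay outside familiar gene families. AGL17, AGL44 and AGL72 are MADS genes, and CRA1, SESA1, OLEO2, EM1 and M17 encode products of the maturing seed.

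All plants were Arabidopsis thaliana grown on agar plates for 12 days in 16 h light and 8 h dark at 22 °C, and each array was hybridised with RNA from a pool of 10 to 12 plants. The clf swn plants carry lesions in CURLY LEAF and SWINGER, but the labels give the alleles both as clf-7 swn-28 and as swn-7 clf-28; they were picked from a segregating progeny because the homozygote is sterile. The siFIE plants were first-generation (T1) transformants carrying an RNA interference construct against FIE, of intermediate phenotype, selected on kanamycin at 50 mg per L, and the sources disagree on their ecotype: the labels give C24 and the study's methods give Col. The wildtype arrays are of Col. The knock-down and the kanamycin, and the ecotype if it is C24, cannot be told apart wherever siFIE is compared with Col or with clf swn. There were 3 arrays per genotype, 9 in all.

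PRC2 places the repressive mark H3K27me3 on histone H3. CURLY LEAF and SWINGER are alternative catalytic subunits, FIE is the subunit common to all plant PRC2 complexes, and in seedlings the complex keeps genes of flowers, embryos and seeds silent. Genes that come on when it is missing are usually genes of another organ or stage.

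The targeted genes were checked first. FIE had a signal of 3392, 3249 and 3349 in clf swn, 244, 281 and 321 in siFIE and 1976, 1768 and 1786 in Col. SWN was between 118 and 392 in clf swn, between 11524 and 12247 in siFIE and between 11186 and 11643 in Col. CLF was between 3744 and 4447 in clf swn, between 9857 and 11825 in siFIE and between 10798 and 12348 in Col, so that each line had a lower signal of the genes it was made against. Where the probes lie relative to the insertions is not known here. Median RMA signals of the 9 arrays were between 1116 and 1169, and arrays of one genotype correlated at r = 0.991 to 0.994. Of 4 leaf markers, LHCB2.1 and RCA were lower in clf swn, and the summed signal of the list was 82570 to 87280 in clf swn, 161200 to 169900 in siFIE and 181000 to 197300 in Col. Of 5 seed markers all rose in clf swn and 3 in siFIE. Those 3 are CRA1 and EM1, which are members, and CRU3, which stood on the list set aside, so the choice of genes fixed their rise, while CRU2 (0.07) and GEA6 (0.85) were not called in siFIE. The list had summed signals, with CRA1, EM1 and CRU3 in them, of 197200 to 216400 in clf swn, 2847 to 4437 in siFIE and 398 to 452 in Col. In whole plants, more cells of a type and more RNA per cell cannot be told apart.

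In Col the members had low signals. The mean signal of a member had a median of 3054 in clf swn (range 286 to 59822), 1217 in siFIE (185 to 12625) and 59.3 in Col (21.7 to 812). Signals of different genes come from different probes and are not levels of RNA, but 52 of the 85 members lay under the array's 25th percentile of Col signals, 83.1, and all 85 under its median. The rise over Col had a median of 4.93 in clf swn (3.04 to 10.58) and 3.66 in siFIE (3.02 to 7.81) on the log2 scale. Because these differences chose the members they are a description, and the choice also fixed the counts of calls against Col that follow, from which nothing is read. With a call at an adjusted p under 0.05 and more than 2-fold in limma, 85 members were called higher in clf swn than in Col, where 8.78% of all genes were, and 84 were called higher in siFIE than in Col, where 4.51% of all genes were. The exception in siFIE was PKR2. No member was called lower than Col in either mutant, where 12.8% of all genes were in clf swn and 3.19% in siFIE. Every array of each mutant was above every Col array for all 85 members, which also follows from the large margin of the choice and was so for 30% of all genes in clf swn and 18.4% in siFIE. Just inside the limit were AT1G30940 (4.49 in clf swn and 3.02 in siFIE), AT5G52620 (3.71 and 3.02) and ARI13 (4.13 and 3.02); just outside were AT5G62510 (4.86 and 2.99), AT3G54940 (9.22 and 2.95) and FPF1 (2.97 and 2.93).

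**Figure D1:**
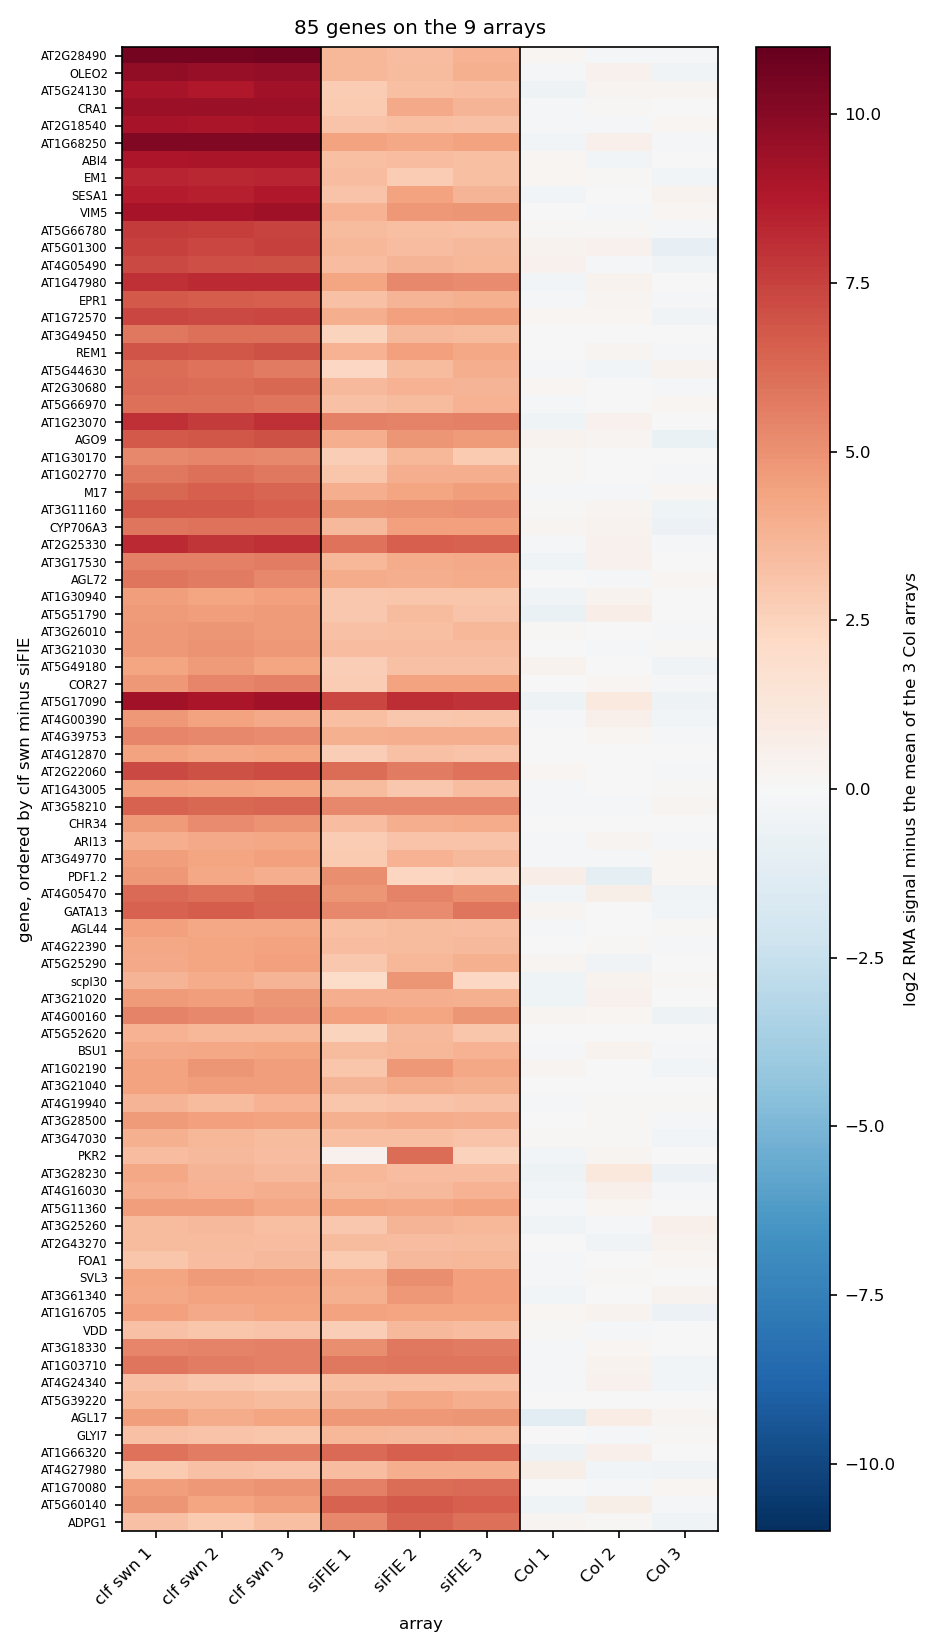
Log2 RMA signal of the 85 genes (rows, ordered by clf swn minus siFIE) on the 9 arrays (columns), each minus the mean of the gene's 3 Col arrays. The clf swn columns are darkest for the genes at the top, up to a rise of 10.58, while the siFIE columns are darkest near the bottom and at AT5G17090.

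The members raised most in both mutants are largely genes with no name in the reference. AT5G17090 had the largest of the smaller rises, with signals of 17553, 15391 and 17812 in clf swn, 4979, 8185 and 7305 in siFIE and 20.6, 61.8 and 20.7 in Col. Its rise was 9.15 in clf swn and 7.81 in siFIE. The lowest siFIE array was far above the highest Col array. AT2G25330 followed with 6990, 5685 and 6528 in clf swn, 1515, 2356 and 2112 in siFIE and 21.2, 32.7 and 20.4 in Col. AT2G22060 had 9036, 7445 and 8158 in clf swn, 4138, 2950 and 3510 in siFIE and 66.6, 54.0 and 52.1 in Col. AT1G23070 had 9809, 7697 and 9646 in clf swn, 1752, 1659 and 1720 in siFIE and 26.2, 50.9 and 37.0 in Col. In these 4 genes the clf swn arrays were all above the siFIE arrays.

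In other strongly raised members the mutants were closer together. AT1G66320 was at 2541, 1976 and 2001 in clf swn, 3054, 3666 and 3566 in siFIE and 27.1, 57.5 and 39.8 in Col. AT1G03710 was at 9738, 8156 and 7956 in clf swn, 9372, 9678 and 9777 in siFIE and 152, 220 and 137 in Col. Here the ranges of the 2 mutants overlapped for AT1G03710, whereas every siFIE array exceeded every clf swn array for AT1G66320. AT3G18330 had 1670, 1743 and 1909 in clf swn, 1446, 2297 and 2151 in siFIE and 36.0, 47.3 and 39.9 in Col, again with overlapping mutants. AT3G58210 had 2940, 2566 and 2754 in clf swn, 1275, 1267 and 1270 in siFIE and 29.3, 29.4 and 40.8 in Col. AT4G05470 had 3101, 2691 and 3224 in clf swn, 1209, 1767 and 1440 in siFIE and 33.7, 65.6 and 31 in Col. For both of these every clf swn array was above every siFIE array.

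**Figure D2:**
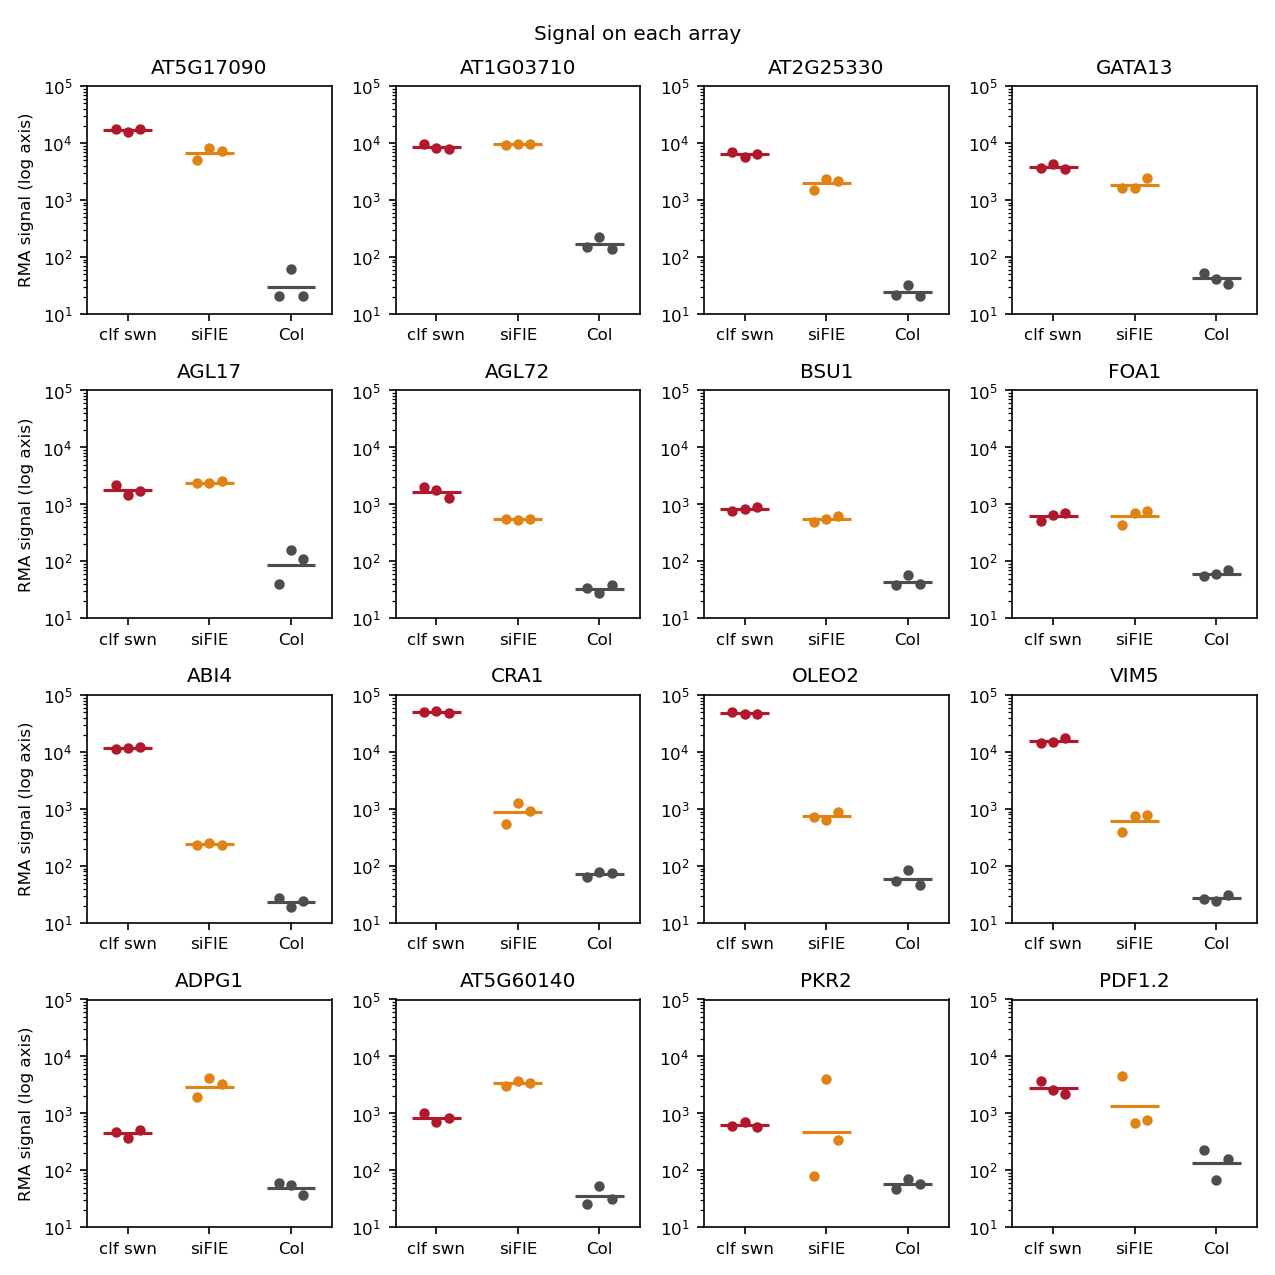
RMA signal (log axis) of 16 genes on each array of clf swn, siFIE and Col; points are arrays and the bar is the geometric mean of 3. ABI4, CRA1, OLEO2 and VIM5 stood far higher in clf swn than in siFIE, ADPG1 and AT5G60140 were higher in siFIE, and the siFIE arrays of PKR2 ran from 81.3 to 4038.

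The study also mapped FIE by chromatin immunoprecipitation and lists the sequence of peaks bound by tagged FIE that carry H3K27me3. Both were mapped in seedlings of the C24 ecotype, whereas the wildtype arrays are of Col. Of its sequences 706 were read, and 26 of the 85 members (30.6%) had one in the gene body, 27 in all, against 2.22% of all genes on the array; this is given as a description. The first 399 bases of each listed peak were searched on both strands for GAGAGA (also read as TCTCTC; overlapping copies counted) and for the telobox-type AAACCCTA (or TAGGGTTT). Stretches of 100 bases are shown from 6 members whose peaks hold such letters, chosen because they show how differently the motifs are arranged: a run in AT5G24130 and AT4G05470, a motif of each kind in AT3G28500, a telobox alone in the stretch of AT1G03710, and single copies in M17 and VIM5. Capitals mark the motifs, coordinates are TAIR9, and the strand of the listed sequences is not stated.
AT5G24130, chr5:8162139-8162238: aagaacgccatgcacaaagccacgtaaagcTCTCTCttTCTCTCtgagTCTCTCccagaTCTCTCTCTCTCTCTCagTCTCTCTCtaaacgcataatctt
AT4G05470, chr4:2767507-2767606: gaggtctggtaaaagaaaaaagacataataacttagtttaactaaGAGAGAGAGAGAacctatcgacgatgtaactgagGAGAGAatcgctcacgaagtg
AT3G28500, chr3:10682083-10682182: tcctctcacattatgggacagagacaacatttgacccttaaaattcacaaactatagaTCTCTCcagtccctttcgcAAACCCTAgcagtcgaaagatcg
AT1G03710, chr1:923390-923489: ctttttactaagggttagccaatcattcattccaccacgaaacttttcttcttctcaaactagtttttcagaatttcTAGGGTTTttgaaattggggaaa
M17, chr2:17206500-17206599: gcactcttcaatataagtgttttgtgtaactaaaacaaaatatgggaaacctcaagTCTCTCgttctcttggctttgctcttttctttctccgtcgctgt
VIM5, chr1:21411915-21412014: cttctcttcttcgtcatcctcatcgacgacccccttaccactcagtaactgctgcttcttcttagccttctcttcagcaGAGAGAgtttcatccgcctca

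AT5G24130 held 11 copies of GAGAGA in its 399 bases and AT4G05470 held 5. Of the 25 member sequences with 399 bases, 9 (36%) held GAGAGA, against 303 (46.3%) of the 654 listed sequences of that length, and 5 (20%) held AAACCCTA, against 122 (18.7%). With the shorter GAGAG, which lies within GAGAGA, the shares were 80% of these member sequences and 74.9% of the listed sequences, and with AAACCCT they were 24% and 25.4%. The peaks themselves can be longer, and the rest of them was not searched. A match is a description of the letters only. Of the members shown, AT5G24130 was raised by 9.04 in clf swn and 3.16 in siFIE, AT4G05470 by 6.19 and 5.15, AT3G28500 by 4.53 and 3.97, and AT1G03710 by 5.69 and 5.85.

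Transcription factors among the members came from several families. ABI4, an AP2-domain factor of abscisic acid and sugar signalling, had signals of 11327, 11658 and 12227 in clf swn, 230, 254 and 234 in siFIE and 27.6, 19.2 and 24.4 in Col. The 3 genotypes were each tight and far apart, and the difference between clf swn and siFIE was 5.62 ± 0.14 (SE, n = 3 each; limma, adjusted p = 7.4e-09). Among 12 embryo and abscisic acid regulators that include ABI4, 10 rose in clf swn and none fell. In siFIE 4 rose (ABI3, ABI4, ABI5 and LEC2), and 9 were higher in clf swn than in siFIE. ABI4 is a member and ABI3 stood on the list set aside, so the choice of genes fixed their rise. Of the rest, only ABI5 (1.62) and LEC2 (1.51) rose in siFIE. The median of the 12 regulators was 3.99 in clf swn and 0.17 in siFIE, beside 0.05 and -0.02 over all genes. FUS3, LEC1, NF-YB6 and DPBF2, which are regulators of embryo development and seed maturation, rose in clf swn by 5.84, 3.45, 7.24 and 6.11, with -0.78, 0.09, 0.17 and -0.28 in siFIE, which did not pass.

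The 3 MADS genes behaved differently from ABI4. AGL17, which promotes flowering and is known for expression in roots, had 2177, 1468 and 1738 in clf swn, 2376, 2353 and 2545 in siFIE and 39.6, 157 and 108 in Col. AGL44, also known as ANR1 and involved in the root response to nitrate, had 3350, 2899 and 2912 in clf swn, 1499, 1720 and 1588 in siFIE and 129, 158 and 166 in Col. AGL72, a relative of the flowering gene SOC1, had 2002, 1792 and 1297 in clf swn, 563, 539 and 565 in siFIE and 33.6, 27.9 and 39.0 in Col. All siFIE arrays were above all clf swn arrays for AGL17, and the reverse held for AGL44 and AGL72. Between the mutants AGL72 passed the test with 1.59 ± 0.18 (SE; limma, adjusted p = 9.7e-05), AGL44 differed by 0.93 (95% interval 0.63 to 1.22; adjusted p = 0.00037), which is under 2-fold, and AGL17 by -0.45 (-1.39 to 0.49; adjusted p = 0.43). The fit pools the spread of all 3 genotypes, so the uneven Col arrays of AGL17 widen its interval. Of a list of 12 MADS genes, most of them SOC1-like or ANR1-like, 7 rose and 3 fell in clf swn, and 6 rose and 2 fell in siFIE. AGL17, AGL44 and AGL72 are among those that rose, which the choice of genes fixed. Those that fell in clf swn were AGL20 (SOC1 itself, -2.02), AGL16 (-1.36) and SVP (-1.79). In siFIE AGL14 (-1.10) and SVP (-1.07) fell, so the genes of this list did not go in one direction.

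Further DNA-binding members were REM1, GATA13 and VDD. REM1, a B3-domain factor of reproductive meristems, had 5217, 4902 and 5601 in clf swn, 602, 949 and 823 in siFIE and 40.8, 51.7 and 36.9 in Col. GATA13, a GATA zinc finger factor, had 3681, 4239 and 3476 in clf swn, 1614, 1592 and 2440 in siFIE and 53.2, 41.7 and 33.8 in Col. Both were higher in clf swn than in siFIE on every array, REM1 by 2.75 ± 0.19 (SE; limma, adjusted p = 3.4e-06) and GATA13 by 1.04 ± 0.21 (adjusted p = 0.0035). GATA13 lay close to the 2-fold limit and was not called without siFIE replicate 1 (0.94), siFIE replicate 2 (0.93) or clf swn replicate 2 (0.96), nor when the probes were summarised with normexp and quantile normalization (0.95) or without background correction (0.88). VDD, a B3-domain gene of the female gametophyte, averaged 381 ± 22.4 in clf swn, 419 ± 122 in siFIE and 43.7 ± 4.35 in Col (SD, n = 3 each). The mutants overlapped, and their difference was -0.09 (95% interval -0.57 to 0.39). Of 7 carpel and ovule markers 5 rose in clf swn and 5 in siFIE. The summed signals of the 7 were 23800 to 24510 in clf swn, 14120 to 16470 in siFIE and 5690 to 6874 in Col. STK, SHP1 and SHP2 stood on the list set aside, so the choice of genes fixed their rise, and they enter these sums. Of the rest, CRC and SPT rose in both mutants, and INO and BEL1 were not called in either against Col. The part of carpel and ovule tissue in the rise of REM1 and VDD was not tested.

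Named genes of seed storage and oil bodies were among those with the tallest rises in clf swn, below AT2G28490 (10.58) and AT1G68250 (10.16). These last have no name in the reference, and whether they too are seed genes was not assessed. CRA1, a 12S globulin of seed storage, had 50065, 53181 and 48866 in clf swn, 544, 1280 and 937 in siFIE and 65.0, 76.8 and 74.8 in Col. OLEO2, an oleosin that coats oil bodies, had 50445, 46716 and 47249 in clf swn, 736, 647 and 891 in siFIE and 55.4, 84.0 and 45.4 in Col. EM1, a late embryogenesis abundant protein, had 50232, 45777 and 49175 in clf swn, 1617, 1030 and 1489 in siFIE and 175, 159 and 120 in Col. In all 3 genes no array of one genotype overlapped another genotype, and the siFIE arrays stood nearer to Col than to clf swn on the log scale. The differences between clf swn and siFIE were 5.87 ± 0.26, 6.0 ± 0.22 and 5.16 ± 0.20 (SE; limma, adjusted p between 5.3e-08 and 2.2e-07). SESA1, a 2S albumin, was raised by 8.66 in clf swn and 3.76 in siFIE, and M17, a late embryogenesis gene, by 6.42 and 4.32. Of the seed markers that are no members, CRU2, CRU3 and GEA6 rose by 9.85, 10.70 and 7.40 in clf swn and CRU3 by 4.87 in siFIE; the part of more seed-like tissue in these values was not tested. None of these probes was recorded as saturated on any array; among all the members' probes 1 reading, of EPR1, was.

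EPR1 (here AT2G27380; another locus shares the symbol), an extensin-like gene known from the endosperm of germinating seeds, is described with them. It had 63714, 60315 and 55436 in clf swn, 5473, 7782 and 8567 in siFIE and 504, 734 and 539 in Col. The genotypes did not overlap, and clf swn exceeded siFIE by 3.06 ± 0.20 (SE; limma, adjusted p = 2.4e-06). Of 27 genes on the array that symbols or synonyms mark as proline-rich, EPR1 was the only one that rose in either mutant, and 10 fell in clf swn. Of 9 storage albumin and cruciferin genes, 8 rose in clf swn and 3 in siFIE. Those 3 were SESA1, CRA1 and CRU3. Of 4 oleosins, 4 rose in clf swn and 2, with OLEO2 among them, in siFIE. EPR1, SESA1, CRA1 and OLEO2 are members and CRU3 stood on the list set aside, so the choice of genes fixed their rise.

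Members that act on chromatin or small RNA were VIM5, AGO9, CHR34 and PKR2. VIM5 belongs to a family that binds methylated cytosine and maintains CG methylation, and had 14487, 14851 and 17371 in clf swn, 393, 747 and 792 in siFIE and 26.2, 24.5 and 31.2 in Col. AGO9, an ARGONAUTE known from ovules, had 13793, 14770 and 16359 in clf swn, 2007, 3756 and 3352 in siFIE and 169, 158 and 77.5 in Col. CHR34, a relative of the DRD1 and CLASSY remodellers of RNA-directed DNA methylation, had 1234, 1796 and 1470 in clf swn, 508, 775 and 826 in siFIE and 46.2, 50.1 and 49.2 in Col. In each of the 3 genes the order was clf swn, siFIE, Col with no overlap. The differences between the mutants were 4.66 ± 0.25, 2.35 ± 0.32 and 1.11 ± 0.20 (SE; limma, adjusted p = 6.9e-07, 0.00029 and 0.0018). CHR34 fell under the 2-fold limit without siFIE replicate 1 (0.89) or clf swn replicate 2 (0.97), and in each summary made again from the probes (normexp and quantile 0.95, normexp and median scaling 0.94, no background correction 0.84). Of the 6 DRD1 and CLASSY genes 5 rose in clf swn, 2 rose in siFIE (CHR34 and CHR40) and none fell. Of 9 ARGONAUTE genes 5 rose in clf swn and 3 in siFIE, and of 5 VIM genes 3 and 1. These counts include the members CHR34, AGO9 and VIM5, whose rise the choice of genes fixed. VIM5 was the only VIM gene that rose in siFIE.

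PKR2, a relative of the chromatin remodeller PICKLE, stood apart in its spread. It had 604, 700 and 588 in clf swn, 81.3, 4038 and 339 in siFIE and 46.8, 70.7 and 57.3 in Col. The siFIE arrays thus spanned a range from just above Col to well above clf swn, and without siFIE replicate 2 the gene was no longer past the limit of 3. The mutants differed by 0.39 with a 95% interval of -2.08 to 2.86.

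Enzymes and signalling proteins formed a mixed group. BSU1, a phosphatase of brassinosteroid signalling, had 783, 829 and 896 in clf swn, 483, 550 and 619 in siFIE and 37.9, 56.8 and 40.3 in Col. Its relatives BSL1, BSL2 and BSL3 were between -0.06 and 0.06 in both mutants and none passed the test. FOA1, an F-box gene linked to abscisic acid responses, had 516, 644 and 707 in clf swn, 441, 709 and 778 in siFIE and 54.6, 59.5 and 71.2 in Col, so the mutants overlapped and their difference was -0.02 (95% interval -0.52 to 0.49). CYP706A3, a cytochrome P450, was raised by 5.93 in clf swn and 4.22 in siFIE, and COR27, a cold- and clock-regulated gene, by 5.22 and 3.88. GLYI7, of the glyoxalase I family, averaged 4338 ± 293 in clf swn, 6087 ± 248 in siFIE and 492 ± 39.5 in Col (SD, n = 3 each). Its siFIE arrays were all above its clf swn arrays, by less than 2-fold (-0.49, 95% interval -0.74 to -0.24; limma, adjusted p = 0.0060). SVL3, of the SHV3-like family, was raised by 4.54 in clf swn and 4.56 in siFIE, and ARI13, of the ARIADNE group of ubiquitin ligases, by 4.13 and 3.02.

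PDF1.2, a plant defensin induced by jasmonate and ethylene, and scpl30, a serine carboxypeptidase-like gene, were uneven among siFIE arrays. PDF1.2 had 3786, 2614 and 2181 in clf swn, 4595, 684 and 778 in siFIE and 230, 67.8 and 162 in Col. scpl30 had 748, 935 and 760 in clf swn, 226, 1634 and 279 in siFIE and 39.7, 73.7 and 61.0 in Col. A different siFIE array was the high one in each, replicate 1 for PDF1.2 and replicate 2 for scpl30 and PKR2. PDF1.2 dropped out of the members without siFIE replicate 1, and scpl30 without siFIE replicate 2. The differences between the mutants had intervals reaching past 2-fold on at least one side and are unsettled.

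The choice of members bounds each rise over Col from below but sets no limit on how the mutants compare with each other. The difference clf swn minus siFIE ran from -2.73 to 6.93 with a median of 1.17, and was above 0 for 68 of the 85 members. In limma 49 members (57.6%) were higher in clf swn than in siFIE, where 6.82% of all genes were, and 3 (3.53%) were lower, where 11% of all genes were. Both rises entered the choice, so the difference between them is not wholly independent of it and the counts are a description. Every clf swn array was above every siFIE array for 60 members (70.6%, against 27.9% of all genes), and every siFIE array above every clf swn array for 9 (10.6%, against 24.6%). The difference was above 4, or 16-fold, in 11 members. These were AT2G28490, OLEO2, AT5G24130, CRA1, AT2G18540, AT1G68250, ABI4, EM1, SESA1, VIM5 and AT5G66780. The clf swn arrays were also those with the highest summed seed markers (197200 to 216400) and the lowest summed leaf markers (82570 to 87280), and the part of these in the differences was not tested. The seed sum is not separate from the choice of genes, since CRA1 and EM1 are members and CRU3 stood on the list set aside. In clf swn the mean signals of CRA1, EM1 and CRU3 were 50704, 48395 and 56204, beside 26052 for CRU2 and 24406 for GEA6.

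AT2G28490 had the largest difference, with signals of 45018, 43147 and 47667 in clf swn, 379, 317 and 427 in siFIE and 34.5, 27.4 and 27.5 in Col. AT5G24130, whose peak sequence holds the long run of TCTCTC, had 31661, 26719 and 35209 in clf swn, 417, 570 and 616 in siFIE and 40.5, 70.8 and 72.0 in Col. AT2G18540 had 34790, 33058 and 34821 in clf swn, 567, 624 and 611 in siFIE and 57.3, 60.6 and 77.0 in Col. These genes carry no name in the reference, and in all of them the siFIE arrays lay between the other genotypes, nearer to Col. The differences were 6.93 ± 0.15, 5.88 ± 0.24 and 5.83 ± 0.13 (SE; limma, adjusted p between 2.6e-09 and 1.4e-07).

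**Figure D3:**
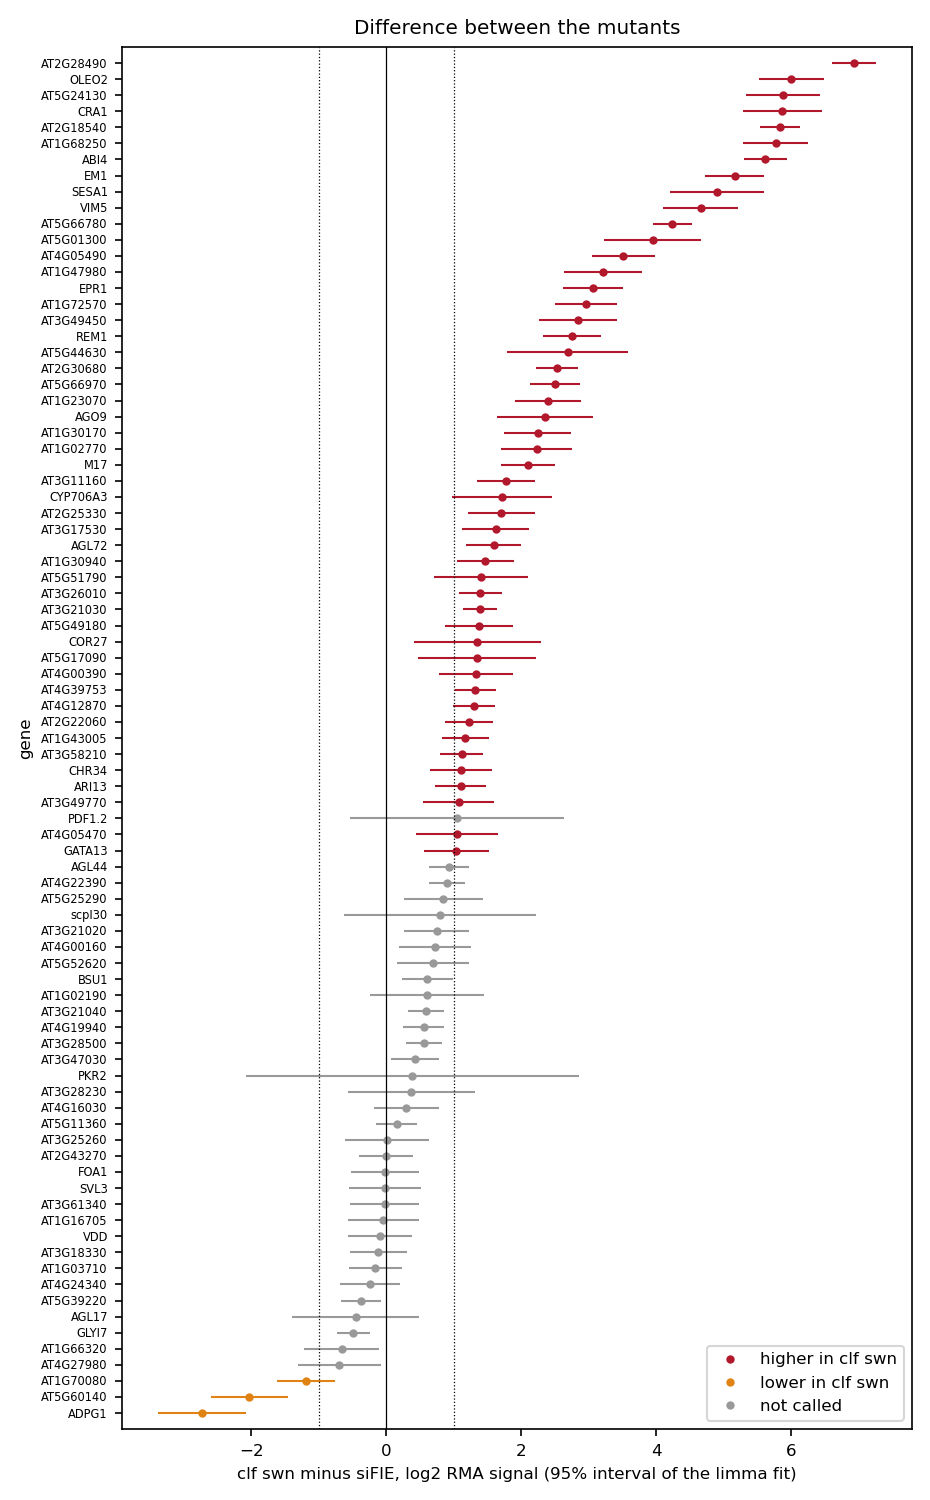
Difference clf swn minus siFIE in log2 RMA signal for each of the 85 genes, with the 95% interval of the limma fit over 9 arrays; colours give the call and dotted lines mark 2-fold. From AT2G28490 at 6.93 to ADPG1 at -2.73, 49 genes were called higher in clf swn and 3 lower.

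The 3 members lower in clf swn were ADPG1, AT5G60140 and AT1G70080. ADPG1, a polygalacturonase that loosens pectin in separating cells, had 477, 374 and 505 in clf swn, 1946, 4132 and 3266 in siFIE and 60.9, 55.8 and 36.6 in Col. AT5G60140 had 1011, 699 and 832 in clf swn, 3089, 3771 and 3445 in siFIE and 26.0, 53.4 and 31.4 in Col. AT1G70080 had 992, 1092 and 1244 in clf swn, 1932, 2770 and 3007 in siFIE and 38.7, 35.4 and 47.5 in Col. In each of them all siFIE arrays were above all clf swn arrays and all clf swn arrays above all Col arrays. The differences were -2.73 ± 0.29, -2.03 ± 0.25 and -1.19 ± 0.19 (SE; limma, adjusted p = 6.1e-05, 0.00017 and 0.00079). AT1G70080 fell just short of 2-fold without background correction (-0.98). Of the other 4 separation-zone pectin genes, PGAZAT rose in clf swn by 1.63, QRT1 (-1.05), QRT2 (-1.25) and QRT3 (-1.10) fell there, and none passed the test in siFIE.

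For 33 members no difference between the mutants was called. In 19 of them the 95% interval lay within 2-fold either way, among them AT1G03710, AT3G18330, BSU1, FOA1, SVL3, VDD, AT1G16705 (-0.04, -0.57 to 0.48) and AT2G43270 (-0.00, -0.41 to 0.40). In the other 14 the interval reached past 2-fold, so that a difference of that size is not settled, among them AGL17, AGL44, AT1G66320, PKR2, PDF1.2 and scpl30. The intervals pool the spread of all genotypes, and uneven Col arrays widened those of AGL17 and AT3G28230.

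Spread among replicates differed by genotype. The median SD of log2 signal over the members was 0.12 in clf swn, 0.27 in siFIE and 0.30 in Col, beside 0.18, 0.18 and 0.17 over all genes. An SD above 1 was found for scpl30, PKR2 and PDF1.2 in siFIE and for AGL17 and AT3G28230 in Col. Of the siFIE arrays, replicate 1 gave the lowest signal for 60 of the 85 members (70.6%, against 37.4% of all genes) and replicate 3 for 4 (4.71%, against 29.1%). FIE itself was lowest in replicate 1 (244) and highest in replicate 3 (321). Without siFIE replicate 1, AT5G17090 was no longer called higher in clf swn (1.13, adjusted p = 0.074), nor was AT4G05470, which fell under 2-fold (0.91); AT5G17090 was also lost without clf swn replicate 1 (1.31, adjusted p = 0.054) or clf swn replicate 3 (1.30, adjusted p = 0.055), and AT4G05470 without clf swn replicate 3 (0.99).

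Each member was read by 2 or 3 probes. Without background correction, 182 of the members' 212 probes (85.8%) were more than 2-fold above Col in both mutants, against 1.06% of 72000 probes; the same arrays chose the members, so this is a check of the probes and not support. All probes passed in 58 members and some in 27. The probes that did not pass were mostly short of it in siFIE: in OLEO2 the siFIE rise was 0.05, 1.64 and 2.00 by probe, in AT5G24130 0.02, 1.37 and 1.60, and in AT2G28490 0.37, 1.14 and 1.39, whereas in clf swn all of these probes rose by 5.17 to 7.68. Both probes of ABI4 rose by 1.01 and 1.02 in siFIE and by 5.67 and 5.34 in clf swn. By contrast the 3 probes of AT5G17090 rose by 4.45 to 5.07 in siFIE and by 5.84 to 6.02 in clf swn.

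The size of the rises depended on the background correction. Summarised from the probe signals without it, the median rise of the 85 members was 3.06 in clf swn (0.92 to 7.33) and 1.99 in siFIE (0.79 to 4.71), in place of 4.93 and 3.66. All 85 stayed above Col in both mutants, and 81 were above 2-fold in both; those that were not are AT2G28490, AT2G43270, AT3G49450 and AT5G24130. A rise above 3 in both mutants remained for 7 genes. The calls between clf swn and siFIE moved less, with 41 members higher and 2 lower, all of which are among the 49 and the 3.

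**Figure D4:**
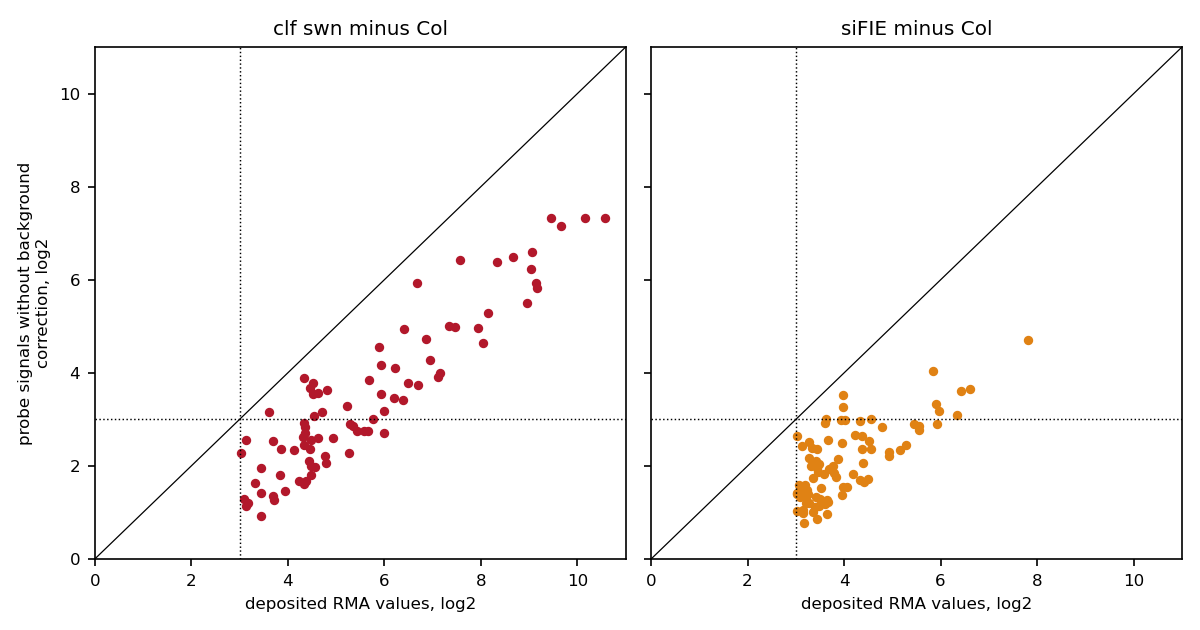
Rise over Col of the 85 genes in the deposited RMA values (horizontal axis, log2) and in probe signals without background correction (vertical axis, log2), for clf swn and siFIE; the diagonal marks equal values and the dotted lines 3. Every gene lay below the diagonal, with a median rise in siFIE of 1.99 in place of 3.66.

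Members lay on all chromosomes, with 16, 13, 19, 15 and 22 on chromosomes 1 to 5, and some stood side by side. AT3G21020, AT3G21030 and AT3G21040 are adjacent pseudogenes, AT4G05470 lies next to AT4G05490, and CYP706A3 next to AT5G44630. Of the 162 genes directly beside a member that are no members themselves, 11 (6.79%) were called higher in both mutants, against 2.39% of all genes. Among them were AGL71 beside AGL72 (3.26 in clf swn and 2.13 in siFIE), PDF1.2c beside PDF1.2 (4.61 and 2.4), AT4G31615 beside REM1 (4.57 and 1.23) and AT3G21010 beside AT3G21020 (3.80 and 2.66). Neighbours of this kind are often copies of one another, and where probes of near-identical copies bind each other's RNA their signals cannot be told apart.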

How the data were processed

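The authors deposited, for each array (NimbleGen 60-mer probes, Cy3 label), probe intensities as the scanner software NimbleScan (2.4.31 per the file headers) wrote them, and gene values computed by RMA, also as intensity on a linear scale; the deposited series table held the same RMA values. Probes were designed on TAIR6 gene models. The values were log2-transformed, with no further scaling. The 85 genes and all gene lists were chosen with earlier results of these data known. The genes named were the 10 members with the largest smaller rise, up to 5 members per direction with the largest called difference between the mutants, members of the lists and families, and the 3 genes on each side of the limit; other genes named were chosen after their values were seen.

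The comparison clf swn minus siFIE was tested in limma 3.58.1 (R 4.3.3; lmFit, eBayes, two-sided) with 3 group means over all 9 arrays (6 residual degrees of freedom) and Benjamini-Hochberg adjustment over 30361 genes; a call needed an adjusted p under 0.05 and more than 2-fold. Rises over Col chose the members; limma's calls of them served only to count calls among members and among all genes, and support nothing. Alternatives were other background corrections (normexp with an offset of 50), scaling, thresholds, a filter at the 25th percentile, a replicate block and leaving out each array. Arrays are separate pools of plants, and their number, 3 per genotype, limits the precision. Image data of all arrays were extracted on one day. The sample labels give no slide, so whether arrays shared one is not settled here, and no batch was fitted. Names came from a RefSeq table (TAIR10.1): all 85 members matched a locus and 27 had a symbol; families were found by symbol and synonym alone. Peak sequences (first 399 bases), their coordinates and their gene-body genes came from the study's supplementary table, whose other values were not used. On simulated data the fit called 13 of 50 changes of 2-fold, 42 of 50 of 3-fold and 47 of 50 of 4-fold, with 6 false calls. A change of exactly 2-fold lies at the limit of a call, so changes of that size are often missed. Figures were drawn with matplotlib 3.10.9.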

Additional observations from a re-analysis of the deposited data

Results flagged for a closer look

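The choice of genes fixed that all 85 were raised over Col in both mutants. For many of them the size differed between the mutants in the limma test of clf swn minus siFIE (adjusted p under 0.05 and more than 2-fold). This was so for 49 of the 85 genes with the larger rise in clf swn and for 3 with the larger rise in siFIE, against 6.82% and 11% of all genes. Both rises entered the choice, so these counts are a description. Groups of 3 arrays were too small to look for single outlying arrays.

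By log2 difference between the mutants, named genes of seeds stood out, with 6.0 for OLEO2, 5.87 for CRA1, 5.62 for ABI4 and 5.16 for EM1. EPR1 had 3.06. The unnamed AT2G28490, AT5G24130 and AT2G18540 had 6.93, 5.88 and 5.83, and whether they too are seed genes was not assessed. The difference was 2.75 for REM1, 2.4 for AT1G23070, 1.70 for AT2G25330, 1.59 for AGL72 and 1.47 for AT1G30940. It was nearer to 2-fold for AT5G17090 (1.34), AT2G22060 (1.23), AT3G58210 (1.11), CHR34 (1.11), ARI13 (1.11), AT4G05470 (1.04) and GATA13 (1.04). Without siFIE replicate 1, AT5G17090 (1.13, limma adjusted p = 0.074), CHR34 (0.89), AT4G05470 (0.91) and GATA13 (0.94) were not called. In the other direction stood ADPG1 with -2.73, AT5G60140 with -2.03 and AT1G70080 with -1.19. The siFIE plants were grown on kanamycin, and their ecotype is C24 in the labels and Col in the study's methods, so line, selection and, if it is C24, ecotype cannot be told apart in any of these values.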

How the results depend on the processing

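The number of genes above 3 in both mutants depended on the background correction of the probes: 85 in the deposited RMA values became 26 with normexp and quantile normalization, 22 with normexp and median scaling and 7 with quantile normalization and no background correction, all of them among the 85. A limit of 2.5 gave 130 genes, 3.5 gave 48, a margin of 3 between every mutant array and the highest Col array gave 46, and a limit of 2 without background correction, chosen after seeing the data, gave 50, of which 39 were among the 85. Leaving out 1 array gave 81 to 91 genes. Between the mutants 44 to 50 members were higher in clf swn and 3 lower when 1 array was left out; without a fold limit these were 59 and 5. Genes called higher than Col in siFIE numbered 675 without background correction, 863 with normexp and median scaling and 3102 without a fold limit, in place of 1370, and in clf swn 1564 without background correction and 7336 without a fold limit, in place of 2666; leaving out 1 array gave 1263 to 1503 and 2664 to 2750. With the replicate number as a block, 49 members stood higher in clf swn and 3 higher in siFIE, as without it, and 1361 genes rose in siFIE; same-numbered arrays did not deviate together (r = -0.164 to 0.169 over 9 pairs, 1 above 0.1), so the number is only a name. Of 589 alternatives of single genes 568 kept their call, 18 lost and 3 gained it. No gene called in the deposited RMA values changed direction. The series table holds the same values and had to agree, and leaving out a Col array changes only the spread, not the difference. Most losses were of CHR34, GATA13 and AT4G05470, near 2-fold, and of AT5G17090. The last stayed above 2-fold (1.13 to 1.31) while its limma adjusted p passed 0.05. Motif shares in promoters were not run because promoter sequences were not at hand. For 52 members the Col signal lay under the array's 25th percentile, where signal over background limits the precision of a rise.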
